A study of Mus musculus with 6 samples.

Results

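The genes described here encode the pathway that loads peptides onto MHC class I molecules in mouse pancreatic islets. They are 10 of the 48397 genes in the deposited count tables, found by exact gene name: B2m, H2-K1, H2-D1, Tap1, Tap2, Tapbp, Psmb8, Psmb9, Psmb10 and Nlrc5. Polyadenylated RNA was sequenced from isolated islets of wild-type C57B6 mice, in 3 libraries of islets cultured for 24 h with 500 ng/mL recombinant mouse prolactin and 3 libraries of islets given DMSO, the solvent control, for the same time. All islets had first recovered overnight in culture. Islets hold insulin-producing beta cells, other endocrine cells and non-endocrine cells, and the labels call the cell type mixed. They give neither age nor sex. Whether a replicate is another animal, another culture or a repeat of one is not in them either, so the p-values speak of the variation among these 6 libraries alone. Total counts ranged from 230833584 to 264885071 in prolactin libraries and from 264466143 to 530296257 in control libraries. Prolactin replicates 2 and 3 were closer than any other pair: the SD of their log2 ratio over 21955 genes was 0.277, against 0.359 and 0.362 in the other prolactin pairs and 0.357 to 0.470 in the control pairs. Prolactin replicate 1 and control replicate 1 were at 0.348. The mean chi-square per gene, which grows with depth, set prolactin replicates 2 and 3 further apart from the rest. It was 6.92 for them, against 82.9 and 94.6 in the other prolactin pairs and 131 to 239 in the control pairs. With prolactin replicates 2 and 3 summed and used as 1 replicate, 0 of the 10 genes were called in either direction, as with all libraries.

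Class I molecules display fragments of a cell's own proteins to CD8 T cells. The proteasome cuts proteins into peptides, the TAP transporter moves the peptides into the endoplasmic reticulum, and a loading complex places them on a heavy chain bound to beta-2-microglobulin. Most nucleated cells make the pathway at a basal level, and interferon raises it. In islets it is known mainly from type 1 diabetes, where beta cells with much class I are a target of CD8 T cells.

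After 24 h of prolactin, transcripts of the pathway were close to their control levels. In edgeR's quasi-likelihood test with Benjamini-Hochberg adjustment over 23924 genes, 0 of the 10 rose and 0 fell, where 0.652% of all genes rose, 0.104% fell and 0.757% did either. Before adjustment, Tap2 alone had a p under 0.05, on the higher side (7.78% of all genes), and 0 of the 10 did on the lower side (6.68%; 14.5% in both directions). DESeq2 and limma-voom each called 0. In bulk RNA, fewer cells of a type and less RNA per cell cannot be told apart. The 95% intervals of the 10 changes, not adjusted for multiple tests, lay between 0.661-fold and 1.27-fold of control. The feedback inhibitor Cish, a known early target of the prolactin receptor, was at 36.5, 42.0 and 40.8 CPM in prolactin replicates 1, 2 and 3, against 8.27, 7.54 and 8.68 CPM in control replicates 1, 2 and 3 (edgeR adjusted p = 7.9e-06). CPM are counts divided by the TMM-scaled library total, and replicate values are given in the order 1, 2, 3 throughout.

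**Figure D1:**
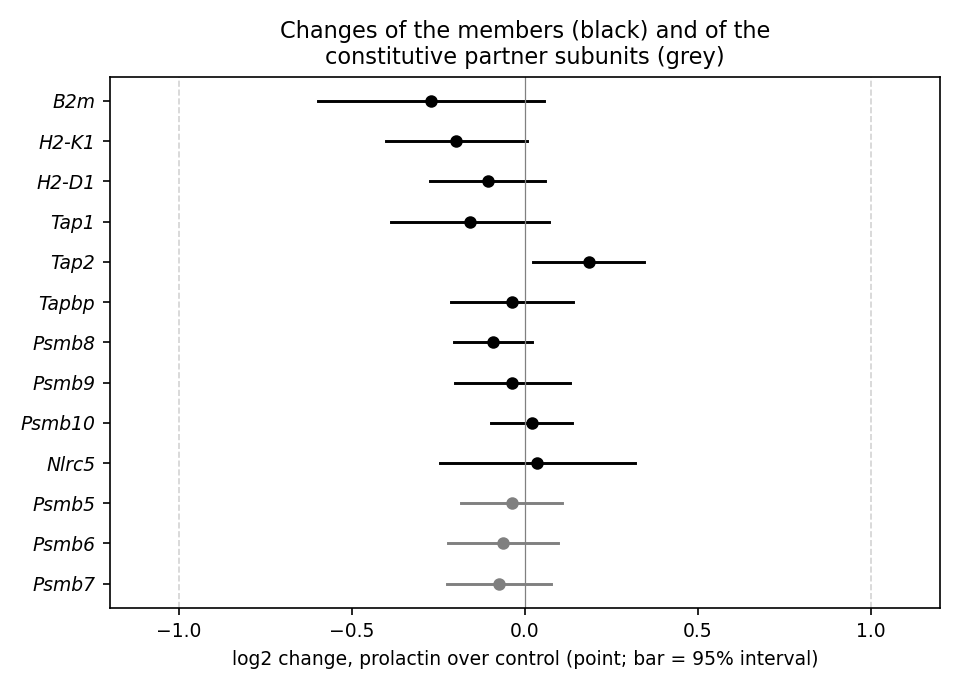
Log2 change of each gene, prolactin over control, as a point with its 95% interval (n = 3 libraries each), for the 10 class I pathway genes in black and 3 constitutive proteasome subunits in grey. Dashed lines mark a log2 change of -1 and of 1. Every interval lies inside these lines, and that of Tap2 alone lies above 0.

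The start sites show how the genes relate. RefSeq promoter windows on GRCm38.p6, the assembly also known as mm10, run from 250 bases before to 50 bases after an annotated start, and 8 of the 10 genes had one in the table used. Windows of 4 genes are printed 5′ to 3′ because they show the related heavy-chain pair, their light chain, and the start region that Tap1 shares with Psmb9. Capitals mark matches to 3 motifs searched on both strands: GAAANNGAAA (the interferon-stimulated response element, ISRE), TTCNNNGAA (the GAS element that STAT factors bind) and CCAAT. No matches of different motifs overlap in these windows.
H2-K1 (chr17:34000298-34000597, minus strand): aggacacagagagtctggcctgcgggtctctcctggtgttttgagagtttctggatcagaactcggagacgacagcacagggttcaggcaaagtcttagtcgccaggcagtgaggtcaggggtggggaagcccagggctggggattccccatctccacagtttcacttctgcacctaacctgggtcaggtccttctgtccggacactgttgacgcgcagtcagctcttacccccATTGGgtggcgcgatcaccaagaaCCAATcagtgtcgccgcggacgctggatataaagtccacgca
H2-D1 (chr17:35262844-35263143, plus strand): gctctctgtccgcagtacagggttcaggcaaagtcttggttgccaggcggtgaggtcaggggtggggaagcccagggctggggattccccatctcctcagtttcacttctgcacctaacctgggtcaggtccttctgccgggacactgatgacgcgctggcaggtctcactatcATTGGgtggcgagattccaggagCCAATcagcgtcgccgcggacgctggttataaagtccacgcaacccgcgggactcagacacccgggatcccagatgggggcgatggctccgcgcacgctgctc
B2m (chr2:122147437-122147736, plus strand): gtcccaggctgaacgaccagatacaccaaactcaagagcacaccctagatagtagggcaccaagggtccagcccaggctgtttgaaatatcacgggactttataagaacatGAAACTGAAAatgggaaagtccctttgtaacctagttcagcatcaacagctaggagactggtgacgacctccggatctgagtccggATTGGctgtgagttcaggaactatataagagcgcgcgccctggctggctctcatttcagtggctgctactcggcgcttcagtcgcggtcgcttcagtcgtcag
Tap1 (chr17:34187306-34187605, plus strand): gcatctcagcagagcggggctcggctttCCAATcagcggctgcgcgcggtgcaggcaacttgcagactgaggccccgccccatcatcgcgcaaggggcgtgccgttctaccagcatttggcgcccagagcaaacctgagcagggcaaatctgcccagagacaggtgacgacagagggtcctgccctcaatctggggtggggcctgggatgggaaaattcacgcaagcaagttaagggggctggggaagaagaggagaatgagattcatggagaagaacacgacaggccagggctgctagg
The H2-K1 and H2-D1 windows were identical at 211 of 239 aligned bases (88.3%). The Psmb9 window is on the opposite strand of that of Tap1 and shares 275 bases with it. Among the 8 genes, 1 window held the ISRE letters (B2m), against 3.44% of 32851 windows of the same length. The GAS letters stood in 1 (Psmb8), against 8.3% of windows, and CCAAT in 6, against 37.4%. The CCAAT matches of Tap1 and Psmb9 are the same bases read from both strands. The 6 is a count of genes, while 37.4% is a share of windows. A match is a string of letters, not a tested site. Sites that depart from the searched letters are not marked. A window without a match, such as that of H2-K1 or H2-D1 for the ISRE, may therefore still hold one.

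B2m encodes the light chain shared by all class I molecules (chromosome 2, 122147686 to 122153083, plus strand, mm10). It stood at 465.8, 391.4 and 398.4 CPM in prolactin libraries, against 629.7, 475.8 and 410.0 CPM in control libraries. The groups overlapped, with control replicate 1 above the other 5 libraries. The log2 change of B2m was -0.27 (edgeR SE 0.14, adjusted p = 0.431), with an interval from 0.661-fold to 1.04-fold, and it was -0.08 without control replicate 1.

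The heavy chains H2-K1 and H2-D1 are the classical class I molecules of this strain that carry peptide. H2-K1 (chromosome 17, 33996017 to 34000333, minus strand) stood at 872, 776 and 782 CPM in prolactin libraries, against 1017, 947 and 823 CPM in control libraries. Only prolactin replicate 1 reached into the control range. The H2-K1 log2 change was -0.20 (edgeR SE 0.090, adjusted p = 0.362, interval 0.756-fold to 1.00-fold). H2-D1 (chromosome 17, 35262730 to 35267499, plus strand) stood at 653, 577 and 591 CPM in prolactin libraries, against 672, 677 and 613 CPM in control libraries. The same prolactin library lay within the control range. The H2-D1 log2 change was -0.11 (edgeR SE 0.073, adjusted p = 0.557, interval 0.828-fold to 1.04-fold).

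In all 3 of these genes prolactin replicate 1 was the highest prolactin library and control replicate 3 the lowest control library. Per kilobase, H2-K1 and H2-D1 together had 1.08, 1.15 and 1.14 times the level of B2m in prolactin libraries, against 0.888, 1.13 and 1.16 times in control libraries. Control replicate 1 was the low one. The principal transcripts of H2-K1 and H2-D1 were identical at 90.7% of 1581 aligned bases, and members of the family may exchange reads. Of the stretches of 100 bases in the H2-D1 transcript, 4.64% also occurred in transcripts of another gene, against 0% for H2-K1 and B2m.

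Tap1 and Tap2 form the 2-chain pump that brings peptides into the endoplasmic reticulum, and lie with Psmb8 and Psmb9 in one stretch of the MHC. Tap1 (chromosome 17, 34187553 to 34197225, plus strand) stood at 32.1, 28.2 and 28.7 CPM in prolactin libraries, against 33.2, 28.4 and 37.9 CPM in control libraries. Control replicate 3 was the highest of the 6, and the groups overlapped. The Tap1 log2 change was -0.16 (edgeR SE 0.10, adjusted p = 0.522), and it was -0.05 without control replicate 3 and -0.26 without control replicate 2.

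Tap2 (chromosome 17, 34203527 to 34216321, plus strand) stood at 35.3, 33.7 and 33.6 CPM in prolactin libraries, against 27.8, 29.3 and 33.3 CPM in control libraries. The prolactin libraries lay above the control libraries, by little above control replicate 3. Tap2 showed the largest positive log2 change of the 10 genes at 0.18 (edgeR SE 0.071, unadjusted p = 0.0289, adjusted p = 0.284, interval 1.02-fold to 1.27-fold). Without control replicate 3 it passed, with a log2 change of 0.26 and an adjusted p of 0.0464, and over the other 14 alternatives it did not. On the other strand, 2 unnamed loci overlap 698 of its 3781 exon bases, and with no strand option featureCounts assigns reads there to no gene. Whether the overlap bears on the difference was not tested.

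Tapbp encodes tapasin, which bridges TAP and the empty heavy chain (chromosome 17, 33915899 to 33929288, plus strand). It stood at 237.8, 237.1 and 232.1 CPM in prolactin libraries, against 220.5, 233.6 and 271.3 CPM in control libraries. The prolactin libraries lay inside the control range. The Tapbp log2 change was -0.04 (edgeR SE 0.078, adjusted p = 0.87), which turned to 0.05 without control replicate 3. As in Tap2, 2 other loci overlap part of the Tapbp exons (726 of 3296 bases), and reads there are assigned to no gene.

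**Figure D2:**
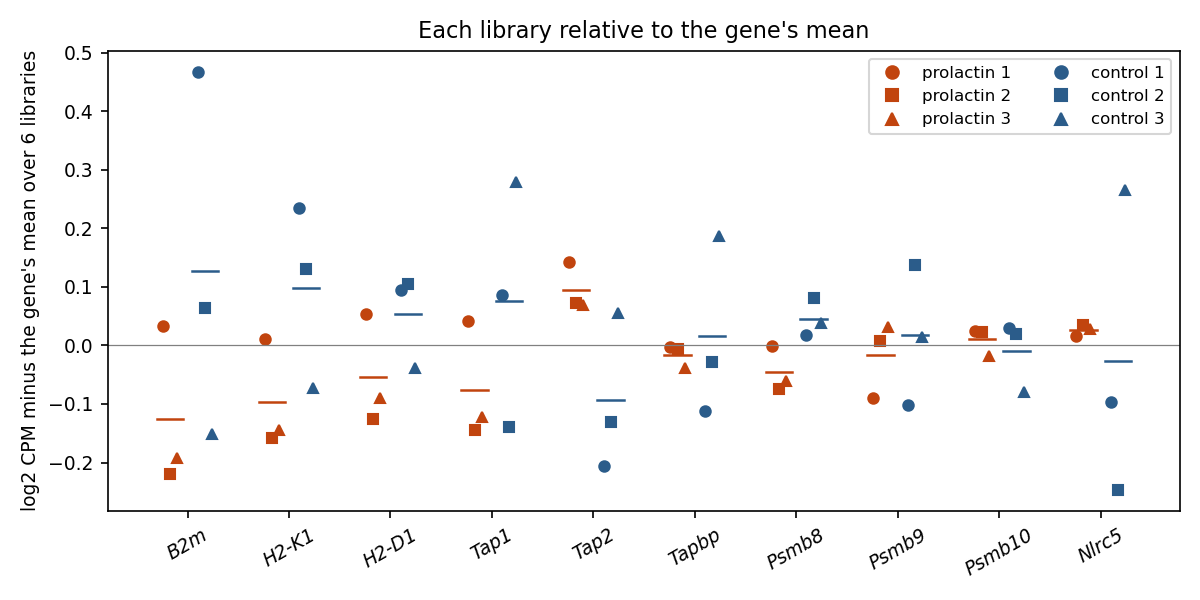
Log2 CPM of each library minus the gene's mean over the 6 libraries, for the 10 genes, with prolactin libraries to the left of control libraries and a line at each group's mean. B2m is highest in control replicate 1, and Tap1, Tapbp and Nlrc5 are highest in control replicate 3.

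Psmb8, Psmb9 and Psmb10 encode the catalytic subunits of the immunoproteasome, which replace Psmb5, Psmb6 and Psmb7 of the constitutive proteasome and favour peptides that fit class I. Psmb8 (chromosome 17, 34197721 to 34201454, plus strand) stood at 30.5, 28.9 and 29.2 CPM in prolactin libraries, against 30.9, 32.2 and 31.3 CPM in control libraries. The prolactin libraries lay below the control libraries; prolactin replicate 1 and control replicate 1 were nearest. The Psmb8 log2 change was -0.09 (edgeR SE 0.050, adjusted p = 0.447, interval 0.868-fold to 1.02-fold). An unnamed locus on the other strand overlaps 186 of the 2736 exon bases of Psmb8. Tap2 and Psmb8 were the 2 of 10 genes whose groups did not overlap, where that held for 21.6% of all genes tested (11.3% with prolactin higher and 10.4% with prolactin lower).

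Psmb9 (chromosome 17, 34181988 to 34187764, minus strand) stood at 16.3, 17.4 and 17.7 CPM in prolactin libraries, against 16.2, 19.1 and 17.5 CPM in control libraries. The prolactin values lay within the control range. Psmb10, on another chromosome (8, 105935728 to 105938392, minus strand), stood at 60.4, 60.3 and 58.6 CPM in prolactin libraries, against 60.5, 60.1 and 56.1 CPM in control libraries. Its log2 change of 0.02 was the smallest of the 10 (SE 0.051, edgeR adjusted p = 0.899, interval 0.935-fold to 1.10-fold), and that of Psmb9 was -0.04 (SE 0.074, adjusted p = 0.867). Psmb9 turned to 0.03 without control replicate 2 and Psmb10 to -0.01 without control replicate 3. Tap1 and Psmb9 overlap by 212 exon bases at their starts, where reads are assigned to neither.

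The exchange of subunits was followed as a ratio within each library, of reads per kilobase of merged exons. Psmb8 over Psmb5 averaged 0.117 ± 0.003 in prolactin libraries and 0.122 ± 0.007 in control libraries (SD, n = 3 each, two-sided exact permutation p = 0.4, 0.6 adjusted over the 3 pairs). Psmb9 over Psmb6 averaged 0.0650 ± 0.0057 in prolactin libraries and 0.0639 ± 0.0075 in control libraries (exact permutation p = 0.7, also 0.7 adjusted). For Psmb10 over Psmb7 the values were 2.04, 2.05 and 2.02 in prolactin libraries, against 1.92, 1.81 and 2.01 in control libraries. These groups did not overlap, and the log2 difference was 0.09 with an exact permutation p of 0.1, the smallest that 3 against 3 libraries allow (0.3 adjusted over the 3 pairs). The level of a ratio rests on the gene models: with principal transcript lengths, Psmb10 over Psmb7 was 0.669 in prolactin and 0.628 in control libraries, and Psmb8 over Psmb5 was 0.203 in prolactin and 0.211 in control libraries. Of the stretches of 100 bases in the Psmb5 transcript, 24.9% also occurred in transcripts of other genes, against 0% for Psmb6, Psmb7 and Psmb8. Whether this bears on the level of Psmb8 over Psmb5 was not tested.

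**Figure D3:**
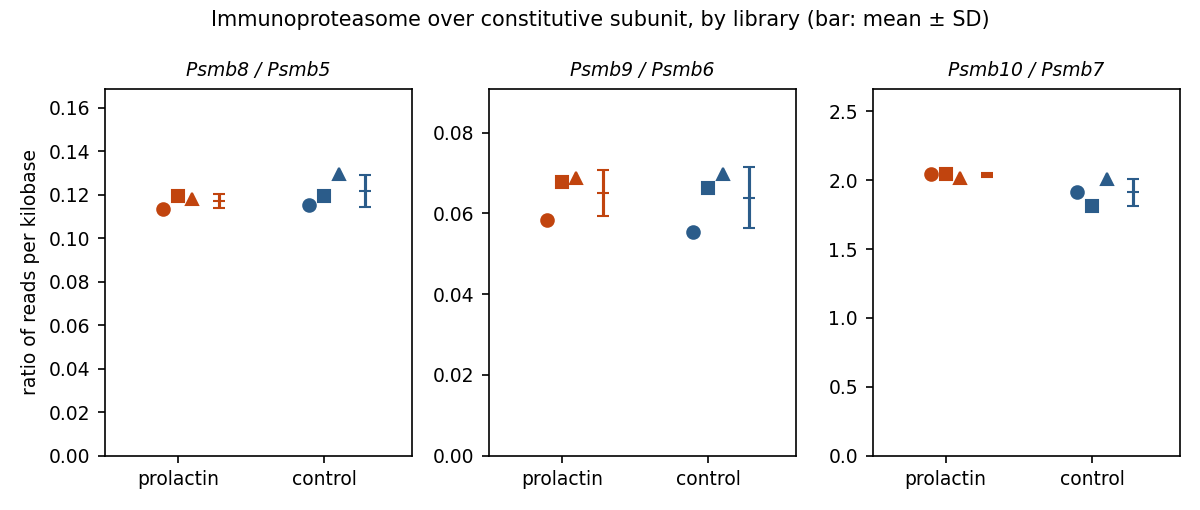
Ratio of reads per kilobase of merged exons for each immunoproteasome subunit over the constitutive subunit it replaces, by library, with the mean and SD of 3 libraries beside the points. Prolactin libraries sit above control libraries for Psmb10 over Psmb7, and the groups overlap for the other 2 ratios.

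Nlrc5 encodes the transactivator of class I promoters (chromosome 8, 94472763 to 94527272, plus strand). It had the lowest counts of the 10 genes, from 1428 to 1644 reads in prolactin libraries and from 1395 to 3059 in control libraries. The level was 6.16, 6.24 and 6.21 CPM in prolactin libraries, against 5.70, 5.13 and 7.32 CPM in control libraries. The prolactin libraries lay together inside a wider control range. The Nlrc5 log2 change was 0.04 (edgeR SE 0.12, adjusted p = 0.923, interval 0.843-fold to 1.25-fold), which turned to -0.01 without control replicate 1 and -0.07 without control replicate 2.

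Per kilobase of merged exons, the order of mean levels over the 6 libraries was B2m at 537.0 CPM per kilobase, H2-K1 at 333, H2-D1 at 244, Tapbp at 72.4, Psmb10 at 46.7, Psmb8 at 11.1, Tap2 at 8.50, Tap1 at 5.74, Psmb9 at 4.74 and Nlrc5 at 0.801. The ranges over libraries of Tap1 and Psmb9 overlapped, and those of the other neighbours did not. B2m was above 99.8% of tested genes on this scale, H2-D1 above 99.5%, and Nlrc5 above 42.4%. With principal transcript lengths, H2-K1 and B2m were both at 537.0 CPM per kilobase and Psmb9 (12.8) stood above Tap1 (10.6) and Tap2 (9.34), so these neighbours have no fixed order.

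**Figure D4:**
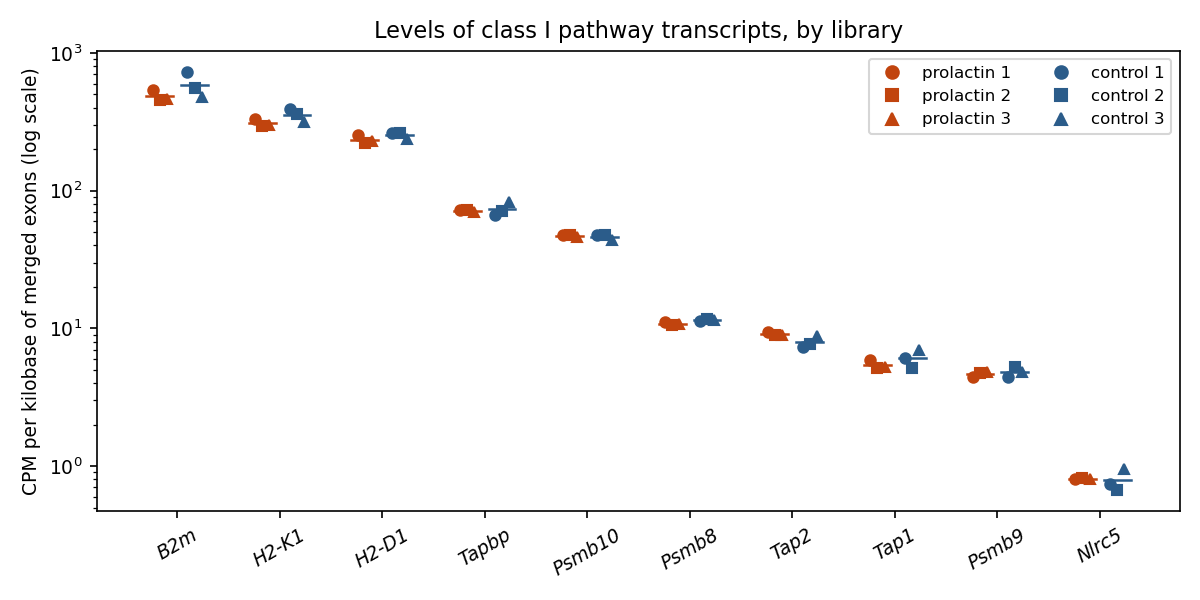
CPM per kilobase of merged exons on a log scale for the 10 genes, ordered by mean level, with prolactin libraries to the left of control libraries and a line at each group's mean. Levels span from 537.0 for B2m to 0.801 for Nlrc5, a far wider range than any difference between conditions.

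In the authors' deposited table, these genes had adjusted p from 0.204 (Tap2) to 0.923 (Psmb10) and log2 fold changes from -0.27 (B2m) to 0.19 (Tap2). Over the 10 genes, the median log2 change in edgeR was -0.06 and 3 were positive, beside a median of 0.00 and 50.1% positive over all genes tested. Likeness was taken to the mean of the centred log2 CPM of the 10 genes over the 6 libraries. Among 10929 genes searched, the 5 most similar named genes of at least 5 CPM were Perp, Nr4a2, Inpp5f, Zfp595 and Mtx1. Their Pearson's r across libraries ran from 0.970 to 0.998. These are the highest of 10929 correlations over only 6 libraries, and such a selection yields high values by itself. Whether these genes vary with the class I genes in other samples was not tested. The 10 genes did not share 1 profile: correlations between them ran from -0.86 (Tapbp and Psmb10) to 0.95 (B2m and H2-K1). Their mean ran only from -0.059 to 0.049, so the likeness is to that mean and not to each gene.

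Other genes of the pathway were read from lists: 0 of 112 tested passed in either direction in edgeR, where 0.757% of all genes did. Before adjustment 2 had a p under 0.05 on the higher side and 14 on the lower side, beside 7.78% and 6.68% of all genes. DESeq2 called 1, on the lower side, and limma-voom called 0. Of the 17893 genes to which DESeq2 gave an adjusted p, it called 4.46% higher and 2.07% lower. Of 12 genes for peptide trimming and loading, 0 passed and the median log2 change was 0.00. Erap1, the aminopeptidase that trims peptides to length, stood at 140.5, 141.9 and 145.1 CPM in prolactin libraries, against 175.2, 173.7 and 144.7 CPM in control libraries. Control replicate 3 lay with the prolactin libraries. The log2 change of Erap1 was -0.21 (edgeR adjusted p = 0.268), and leaving out that control library gave -0.29 and a pass (adjusted p = 0.0277). The chaperone Canx had a log2 change of -0.09 and the cysteine protease Blmh of -0.09.

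Of 14 subunits of the constitutive proteasome core, 0 passed edgeR's test and the median log2 change was -0.05. The core subunit Psma4 had the smallest p among them (log2 change -0.11, adjusted p = 0.434), and Psmb5, Psmb6 and Psmb7 had log2 changes of -0.04, -0.06 and -0.08. Of 9 activators and assembly factors, 0 passed, with log2 changes of 0.05 for the activator Psme1 and -0.12 for the assembly factor Pomp.

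Of 17 other heavy chains and class I-like genes, 0 passed edgeR's test and the median log2 change was -0.10. The non-classical gene H2-T22 stood at 40.6, 35.4 and 35.2 CPM in prolactin libraries, against 47.1, 42.7 and 41.8 CPM in control libraries. The groups did not overlap, and the log2 change of H2-T22 was -0.24 (SE 0.073, adjusted p = 0.178). For Mr1, which presents vitamin metabolites to MAIT cells, it was -0.19 (adjusted p = 0.297), for H2-M3 0.13, and for H2-M2, at about 1 CPM or less, 0.73 (adjusted p = 0.298). Of 14 transcription factors that act on class I promoters, 0 passed edgeR's test. The log2 change was -0.11 for Rfx5, which binds the X box (adjusted p = 0.37).

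Of 28 interferon-stimulated genes, 0 passed edgeR's test. Before adjustment 8 had a p under 0.05, all on the lower side, where 6.68% of all genes did. DESeq2 called 1 lower, against 2.07% of all genes, and limma-voom called 0. Their median log2 change was -0.17, with 24 negative and 4 positive, beside a median of 0.00 and 50.1% positive over all genes tested. Their summed level was lowest in control replicate 2 (712 CPM) and highest in control replicate 3 (996 CPM), with prolactin libraries from 740.2 to 805 CPM between them, so the sums overlapped. Leaving out control replicate 3 gave a median of -0.09, and leaving out control replicate 2 gave -0.28. Gbp5, a GTPase of the interferon-gamma response, stood at 4.50, 3.87 and 3.92 CPM in prolactin libraries, against 7.05, 5.46 and 5.53 CPM in control libraries. The groups did not overlap. The log2 change of Gbp5 was -0.55 (edgeR SE 0.12, adjusted p = 0.083), and DESeq2 called it lower (adjusted p = 0.00046). For the immunity GTPase Irgm1 it was -0.18 (edgeR adjusted p = 0.189). Of 11 interferon receptor and signalling genes 0 passed edgeR's test, with log2 changes of -0.24 for Irf9 (adjusted p = 0.225), -0.28 for Stat2 (adjusted p = 0.428) and -0.11 for Jak2. Stat2 was highest in control replicate 3, at 109.0 CPM against 68.6 to 75.8 CPM in the other 5 libraries, and its change was -0.049 without it.

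**Figure D5:**
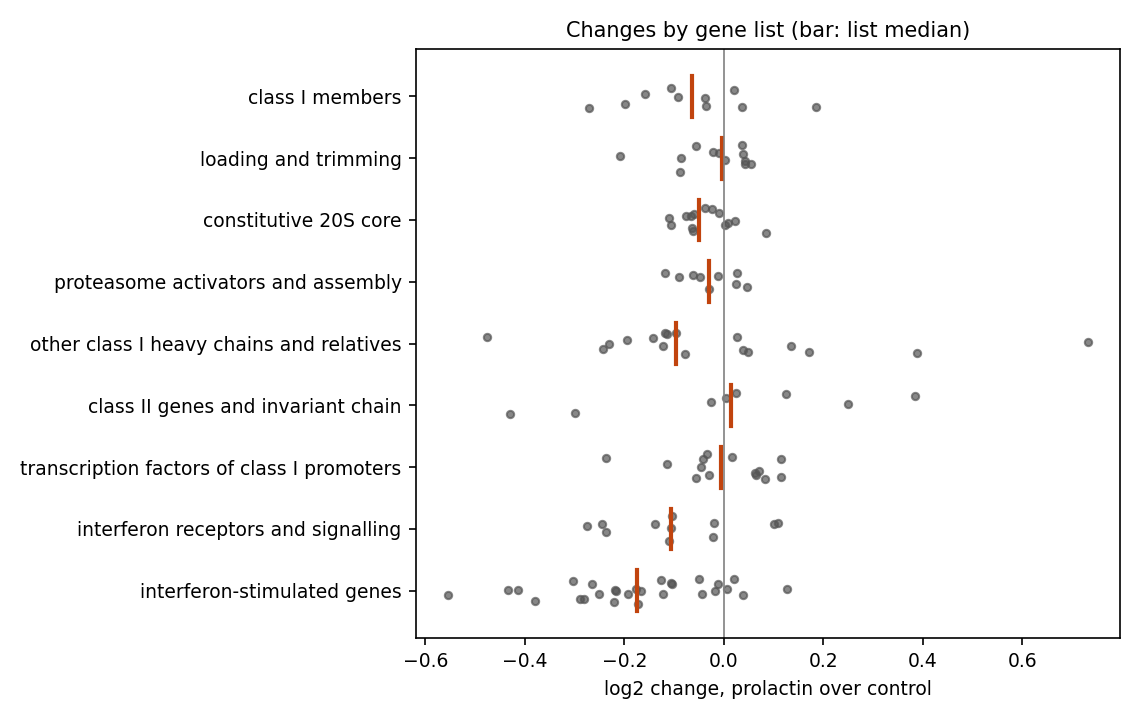
Log2 change, prolactin over control, of each tested gene in the class I pathway, proteasome, class II and interferon lists, with an orange bar at the list's median and a grey line at the median of all genes tested. The medians of these 9 lists run from -0.17 for interferon-stimulated genes to 0.01 for class II genes.

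Leukocytes carry much class I, and the antigen-presenting cells among them also carry class II. Leukocyte markers were present at low levels. The 14 leukocyte markers summed to 71.2 to 78.7 CPM in prolactin libraries, against 71.1 to 82.7 CPM in control libraries. Of the 12 tested, 0 passed edgeR's test, with 1 on the lower side before adjustment (6.68% of all genes). That marker was at 0.063 CPM or less in every library, so its change rests on few reads. The pan-leukocyte gene Ptprc was at 4.95, 5.03 and 5.28 CPM in prolactin libraries, against 5.87, 4.62 and 5.02 CPM in control libraries. Among the defining markers Nkg7 was at 0 reads in prolactin replicate 2 and control replicate 3. Of 8 tested class II genes, 0 passed edgeR's test (1 on each side before adjustment, beside 7.78% higher and 6.68% lower of all genes). These were the chains of H2-DM, which exchanges peptides on class II: H2-DMa had a log2 change of -0.30 (edgeR adjusted p = 0.284), with overlapping groups, and H2-DMb1 one of 0.38 (adjusted p = 0.300), with all prolactin libraries above the control libraries at about 1 CPM. The class II chain H2-Ab1 was at 17.4, 25.7 and 25.3 CPM in prolactin libraries, against 16.8, 21.3 and 19.4 CPM in control libraries.

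Markers of other cell types differed between libraries. The 8 stromal markers summed to 687 to 855 CPM in prolactin libraries, against 338 to 502 CPM in control libraries. In edgeR's test 2 of 8 rose (the collagen chains Col1a1 and Col1a2), where 0.652% of all genes did. The 8 endothelial markers summed to 300.4 to 308 CPM in prolactin libraries, against 259 to 292 CPM in control libraries, with 0 called by edgeR, 5 higher before adjustment (7.78% of all genes) and 2 called higher by DESeq2 (4.46% of all genes). The 7 ductal markers summed to 1261 to 1795 CPM in prolactin libraries, against 992 to 1555 CPM in control libraries. Of these, edgeR called 0, with 2 higher before adjustment (7.78% of all genes), and DESeq2 called 1 higher (4.46% of all genes). Acinar markers (8 genes) summed to 703 to 1579 CPM in prolactin libraries, against 418 to 2513 CPM in control libraries, highest in control replicate 3, with 0 called by edgeR before or after adjustment. Their part in the class I values was not tested. The 10 endocrine markers summed to 161651 to 165412 CPM in prolactin libraries, against 161704 to 180435 CPM in control libraries, so the defining transcripts of the labelled tissue were present. In edgeR's test 1 of the 10 fell (Sst) and 0 rose, beside 0.104% and 0.652% of all genes. Before adjustment 2 were lower (6.68% of all genes), and DESeq2 called those 2 lower (2.07% of all genes). They were Sst and the pancreatic polypeptide gene Ppy (edgeR log2 change -0.74, adjusted p = 0.071, groups apart).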

How the data were processed

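The authors counted reads per gene name with featureCounts 2.0.3 on GENCODE vM10 gene models, per the file headers, and deposited the raw counts. Per the submitters' processing notes, mm10, SAMtools 1.21, Subread 2.1.0 and DESeq2 were used. An aligner is not given in the notes or headers. The command in the header carries no option for strand, for multi-mapping reads or for counting pairs, so mates may be counted separately (53.9% to 56.3% of counts from 1 to 20 were even) and no interval from counting alone is given. A second deposited table holds the authors' log2 fold changes with errors, a test statistic (a score), p-values and a mean signal per gene. Of the columns with values per sample, 0 were left out.

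All 6 libraries entered 1 fit in edgeR 4.0.16 (R 4.3.3) after TMM scaling. The filter filterByExpr, with at least 10 counts in enough libraries and 15 in total, left 23924 of 48397 genes, the 10 class I pathway genes among them. The quasi-likelihood fit had condition as its only term, with a two-sided test and Benjamini-Hochberg adjustment over all genes at a threshold of 0.05. SEs were taken from the test statistic. Ratios of subunits were tested by exact permutation over libraries. Levels per kilobase use the deposited merged exon lengths, or the principal transcripts of GENCODE vM21 on the same assembly. Alternatives were DESeq2 1.42.0, limma-voom (limma 3.58.1), other scalings and filters, a replicate block, each library left out, halved counts, and prolactin replicates 2 and 3 summed. The genes named beyond the 10 were those of smallest p per list, up to 4, with fixed partners and markers; genes named elsewhere were chosen after their values were seen. Values of 2 list genes are not reported here. The genes and lists were chosen with earlier results of these data known. The fit was tested in 3 simulations with 200 changed genes each. It recovered 48.7% of log2 changes of 0.5, 62.6% of those of 1 and 95.8% of those of 2. Of its calls, 10.9% were false.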

Additional observations from a re-analysis of the deposited data

How the results depend on the processing

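Over 15 alternatives the count of class I pathway genes called lower stayed at 0, and the count called higher was 0 except for 1 (Tap2) without control replicate 3, so that leaving out single libraries gave 0 to 1. B2m, H2-K1, H2-D1, Tap1, Tap2 and Psmb8 kept the sign of their change under all 15. Without single libraries H2-K1 ran from -0.278 to -0.127 and H2-D1 from -0.165 to -0.072. Signs of changes near 0 turned without single libraries: Tapbp ran from -0.099 to 0.054, Psmb9 from -0.093 to 0.025, Psmb10 from -0.014 to 0.040 and Nlrc5 from -0.069 to 0.195. The Psmb9 over Psmb6 difference of 0.03 ran from -0.071 to 0.103 without single libraries and was -0.0099 with prolactin replicates 2 and 3 summed; the other 2 ratios kept their sign.

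The other pathway genes called lower, 0 in the main test, were 1 with no low-count filter and with DESeq2 (Gbp5 in both), 2 with the replicate block (Gbp5 and H2-T22), and 0 to 1 (Erap1) without single libraries. Over all genes, those higher and lower (156 and 25) were 798 and 370 with DESeq2, 470 and 127 with no filter, 464 and 134 with the replicate block, and 42 and 2 with prolactin replicates 2 and 3 summed. A filter of 1 CPM in 3 libraries gave 46 lower. Without single libraries they ranged from 39 to 342 higher and from 1 to 234 lower, the highest both without control replicate 3 and the lowest both without prolactin replicate 2. Each of the 6 omissions moved 1 or both counts by over 1.5 times, and the cause was not tested. The deviations of same-numbered libraries correlated at 0.29, 0.18 and -0.05, and those of differently numbered libraries at -0.29 to 0.21. With 3 libraries per group, these values cannot tell whether the numbers pair the samples. The replicate block called 0 of the 10 class I genes in either direction.

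The median SE of the 10 changes was 0.076 on the log2 scale, and Nlrc5 rests on the fewest reads.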
